A study of Mus musculus with 16 samples.

Results

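The Hoxb cluster holds 10 homeobox genes on mouse chromosome 11, Hoxb1 to Hoxb9 and Hoxb13, out of 21631 protein-coding genes placed on autosomes or the X chromosome. Its H3K27me3 peaks were examined in CCN6KOT cells, a mouse breast tumour line with spindle metaplastic features in which CCN6 is knocked out. All libraries came from this line, so both groups lack CCN6. The control group had received a control lentivirus (PPGS in the sample titles), and the other group a lentivirus with DNTCF4. DNTCF4 is a dominant negative form of TCF4, a factor through which beta-catenin acts on its target genes. Both groups were selected with puromycin. Each group had 4 H3K27me3 libraries, numbered 1 to 4, while the 8 IgG libraries were left aside (not analysed here). The labels do not state whether libraries of a group are separate cultures. The p-values therefore measure only how these libraries vary, and that variation may be technical. A member was called marked in a library when a peak overlapped its annotated span extended by 2 kb on each side by at least 1 base, and all 10 genes were found in the annotation. The design asks whether interfering with TCF4 alters where H3K27me3 lies.

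Hox genes encode transcription factors that give cells their position along the body axis, and the genes of a cluster lie on the chromosome in the order of the body regions in which they act. H3K27me3 is written by Polycomb repressive complex 2, whose catalytic subunit is EZH2, and commonly covers silent Hox clusters in broad stretches. Within a Hox cluster, genes kept active are usually free of this mark.

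The 8 peak lists differed far more in length than the groups did. They held between 191 (dnTCF4 2) and 54070 peaks (control 3), and covered between 0.129 and 52.7 Mb. Control 4 held 22745 peaks, dnTCF4 1 held 21492, dnTCF4 3 held 4885, dnTCF4 4 held 1838, control 2 held 738 and control 1 held 426. The lists give no read counts, so depth is unknown, and a gene without a peak is not shown to lack the mark. Among markers of the cell types that such a culture could hold, 2 of 6 epithelial genes (Epcam in 8 libraries, Cdh1 in 3), 0 of 6 mesenchymal, 2 of 4 immune (Ptprc and Cd3e) and 1 of 3 endothelial genes (Kdr) had a peak in at least 1 library, as had 21.4% of all genes. A repressive mark measures no expression, and the part of other cell types was not tested.

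Most bases of the Hoxb cluster that H3K27me3 peaks covered lay in the long stretch between Hoxb13 and Hoxb9. In the longest lists peaks covered 34.6% (control 3), 12.5% (control 4) and 16% (dnTCF4 1) of the 178 kb from 2 kb below Hoxb13 to 2 kb above Hoxb1. Coverage was 1.43% in dnTCF4 3 and 0.295% in dnTCF4 4, and no peak lay there in control 1, control 2 or dnTCF4 2. Chromosome 11 as a whole was covered to 2.09%, 0.716%, 0.846%, 0.111% and 0.0288% in the 5 libraries with peaks, so the cluster stood between 10.2 (dnTCF4 4) and 18.9 times (dnTCF4 1) above its chromosome.

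**Figure D1:**
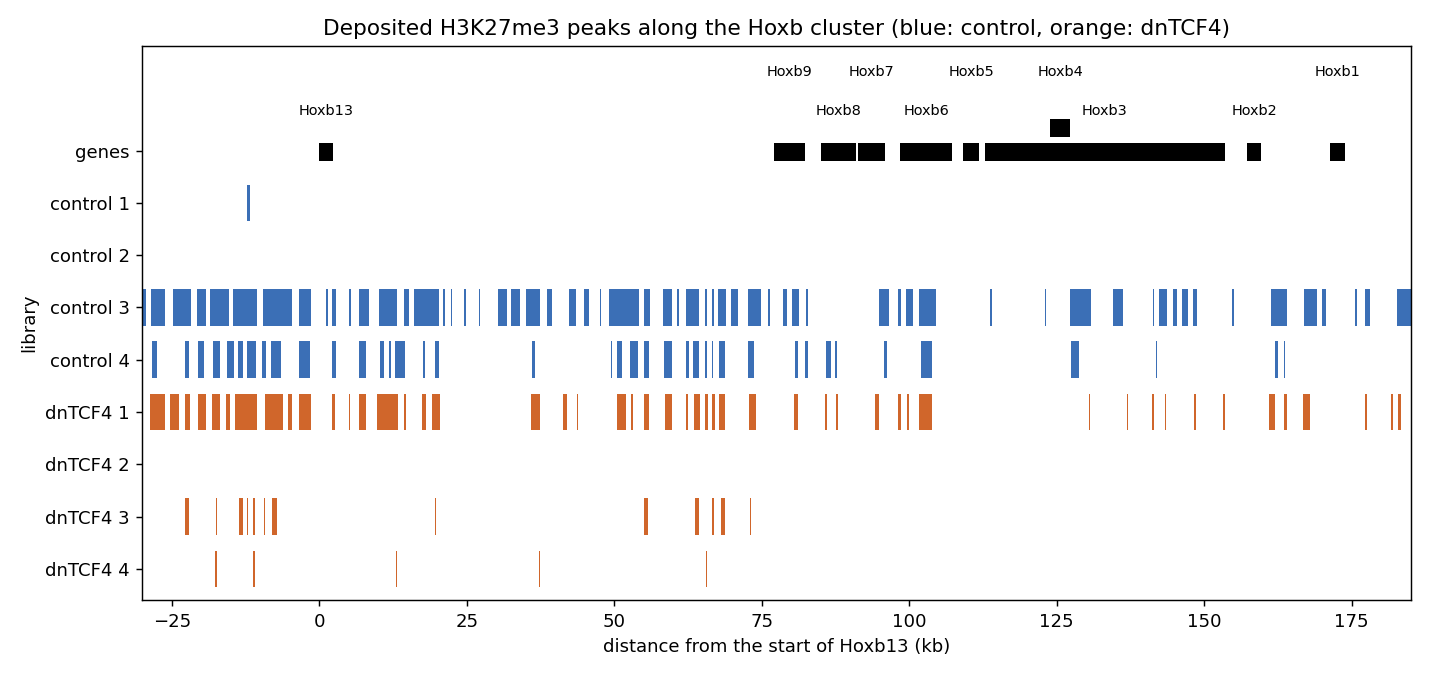
Deposited H3K27me3 peaks (bars) of each library along the Hoxb cluster, with the 10 genes as black boxes; the x axis is the distance in kb from the start of Hoxb13, in the direction of Hoxb1, and the y axis the library. Peaks crowd below Hoxb13 and between Hoxb13 and Hoxb9, and 3 libraries (control 1, control 2, dnTCF4 2) hold no peak from Hoxb13 to Hoxb1.

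The stretch between Hoxb13 and Hoxb9 held most covered bases of the cluster in each of the 5 libraries with cluster peaks. It spans 74.7 kb (chr11:96196611-96271329, mm10), 42.0% of the cluster with its flanks, and holds the microRNA gene Mir196a-1 and the long non-coding RNA genes Gm53 and Gm51876. Peaks covered 48.0% of it in control 3, 19.5% in control 4, 24.6% in dnTCF4 1, 3.40% in dnTCF4 3 and 0.703% in dnTCF4 4. This stretch held 58.2%, 65.5% and 64.6% of the covered bases of the cluster in control 3, control 4 and dnTCF4 1, and 100% in dnTCF4 3 and dnTCF4 4. All 8 stretches of the cluster that were covered in 4 libraries lay here, between 81 and 682 bp long, and each was covered in 2 libraries of either group. The longest of them (chr11:96257938-96258619) ended 12.7 kb from Hoxb9. No base of the cluster was covered in 5 libraries. Only 5 libraries had cluster peaks, and dnTCF4 3 and dnTCF4 4 shared 0 covered bases there. A base in 4 libraries thus had to lie in control 3, control 4, dnTCF4 1 and 1 of these 2. The place of the 8 stretches and their 2 libraries per group followed from this and from where those 2 lists had peaks.

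Mir196a-1 lies between Hoxb13 and Hoxb9, and Mir10a lies inside the annotated span of Hoxb3, just below Hoxb4. Their main mature products are shown because both microRNA genes belong to the cluster, are known regulators of Hox messages, and differed in their distance to the nearest peak. Sequences are from RefSeq (GRCm38.p6, plus strand), with the seed (bases 2 to 8) in capitals.
mmu-miR-196a-5p: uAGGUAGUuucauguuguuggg
mmu-miR-10a-5p: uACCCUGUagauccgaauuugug
The Mir196a-1 hairpin (chr11:96265164-96265265) was covered over 76 of its bases by a peak in control 3. The nearest peak lay 1805 bp away in control 4, 1850 bp in dnTCF4 1 and 1984 bp in dnTCF4 3. The Mir10a hairpin (chr11:96317165-96317274) was covered in no library, with the nearest peak 72 bp away in control 3, 4425 bp in control 4 and 7479 bp in dnTCF4 1.

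From Hoxb9 to Hoxb1 coverage was lower as a whole, at 25.1% in control 3, 7.39% in control 4 and 9.69% in dnTCF4 1, and uneven. The 34.8 kb from Hoxb9 to the end of Hoxb5 were covered to 24.5% in control 3, 13.7% in control 4 and 14.4% in dnTCF4 1. Between the end of Hoxb5 and the start of Hoxb4 (12.1 kb), coverage was 4.98% in control 3 and 0 in the other libraries. Between Hoxb4 and Hoxb2 it was 32.1%, 5.30% and 5.32% in control 3, control 4 and dnTCF4 1, and between Hoxb2 and Hoxb1 (11.7 kb) 47.7%, 6.80% and 23.9%. The longest stretch free of peaks in all 8 libraries was 9.12 kb (chr11:96298847-96307961), which runs from the end part of Hoxb6 across the whole of Hoxb5 into the start of Hoxb3. The next longest measured 8999 bp and lay inside the annotated span of Hoxb3, ending at Mir10a. These stretches were chosen after the data were seen and carry no test.

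**Figure D2:**
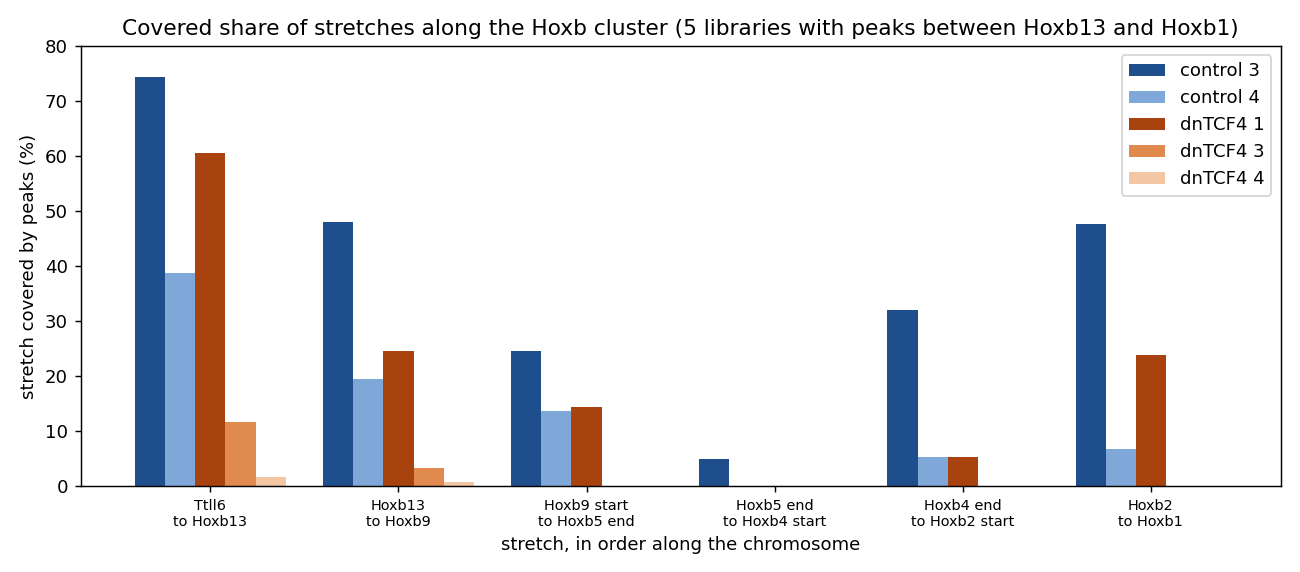
Share of each stretch covered by peaks (y axis, %) for 6 stretches in order along the chromosome (x axis), in the 5 libraries with peaks between Hoxb13 and Hoxb1. The stretch below Hoxb13 reaches 74.3% in control 3, and the one between Hoxb5 and Hoxb4 is at 4.98% in control 3 and at 0 in the others.

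The gene bodies together were less covered than the rest of the cluster, but most of that gap came with the stretch between Hoxb13 and Hoxb9. In control 3, peaks covered 23.2% of the 10 bodies together and 43.8% of the rest of the cluster. The values were 7.32% and 16.6% in control 4, 8.58% and 21.8% in dnTCF4 1, 0 and 2.57% in dnTCF4 3, and 0 and 0.531% in dnTCF4 4. From Hoxb9 to Hoxb1 alone, bodies and rest were at 23.2% and 30.9% in control 3, 7.36% and 7.50% in control 4, and 8.61% and 12.9% in dnTCF4 1. With the long Hoxb3 span counted as rest, the whole cluster gave 19.8% and 39.1%, 10.4% and 13.2%, and 12.9% and 16.9% in these libraries. In the Hoxc cluster bodies and rest were at 61.9% and 77.4% in control 3, 50.3% and 46.7% in control 4, 56.9% and 68.2% in dnTCF4 1, 33.7% and 28.0% in dnTCF4 3, and 6.91% and 12.7% in dnTCF4 4. The Hoxd cluster ran the other way in each library with Hoxd peaks, with 11.3% and 5.75% in control 3, 3.06% and 0.987% in control 4, and 8.44% and 2.89% in dnTCF4 1. Of the outermost annotated starts of the 10 Hoxb genes, 1, that of Hoxb6, lay inside a peak, in control 3 and in dnTCF4 1, and none of the other outermost starts had a peak within 500 bp. An inner start of Hoxb8, described with its promoter window, was overlapped by peaks. Of the 9 Hoxc genes, 6 had a peak within 500 bp of their start in control 3 and 4 each in control 4 and dnTCF4 1.

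Every Hoxb gene was marked in at least 1 library, but only in 3 libraries was any of them marked. Control 3 marked 9 of 10, with 20.1% of all protein-coding genes marked there. Control 4 marked 7 (12.5% of all genes) and dnTCF4 1 also 7 (13.7%). It was 0 in control 1, control 2, dnTCF4 2, dnTCF4 3 and dnTCF4 4, where 0.675%, 1.06%, 0.254%, 5.13% and 2.41% of all genes were marked. Of the 4474 genes as long as the 9 Hoxb genes other than Hoxb3, the marked share was 15% in control 3, 8.47% in control 4 and 9.79% for dnTCF4 1. In control 1, control 2, dnTCF4 2, dnTCF4 3 and dnTCF4 4 the shares of these genes were 0.514%, 0.536%, 0.112%, 3.64% and 1.3%. At least 1 library marked 21.4% of all genes. Extended spans of neighbouring Hoxb genes overlap, so 1 peak can mark more than 1 of them. Among the 10 genes, 5 were marked in 3 libraries (Hoxb3, Hoxb6, Hoxb7, Hoxb9 and Hoxb13, against 10.5% of all genes in at least 3 libraries), 3 in 2 libraries (Hoxb2, Hoxb4 and Hoxb8) and 2 in control 3 alone (Hoxb1 and Hoxb5). Values below are the covered share of the extended span, and libraries not named were at 0.

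**Figure D3:**
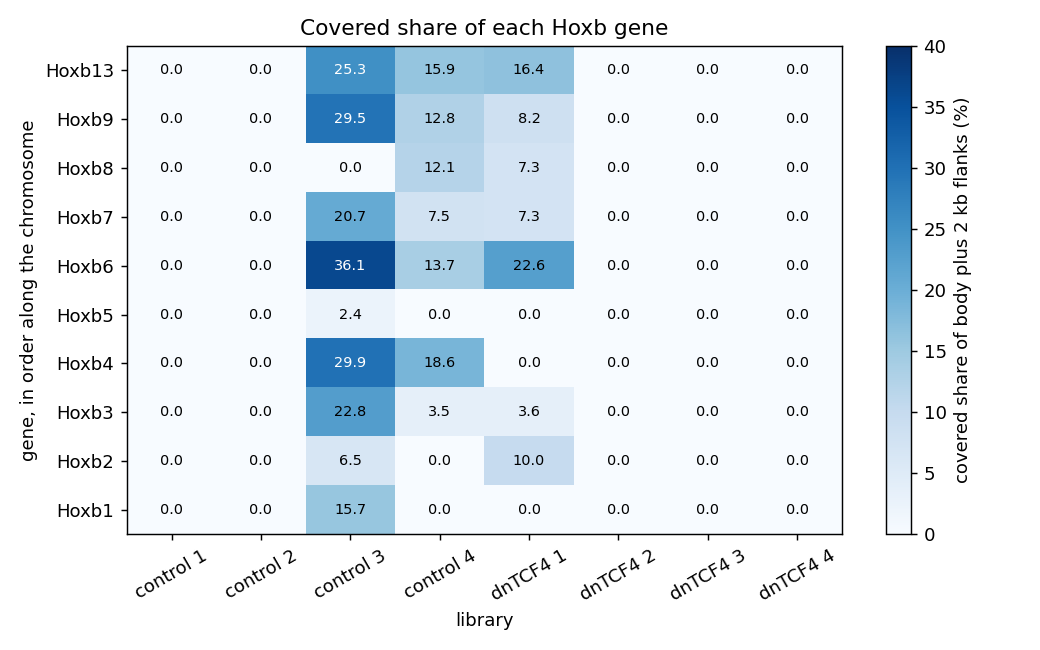
Covered share (%) of each Hoxb gene with 2 kb flanks (rows, in chromosome order) in each of the 8 libraries (columns). Only control 3, control 4 and dnTCF4 1 hold values above 0, the highest being 36.1% for Hoxb6 in control 3.

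The 4 genes of the anterior end act mainly in the hindbrain and neck region. Hoxb1 (chr11:96365746-96368254), which sets the identity of a hindbrain segment, was covered to 15.7% in control 3 only. Hoxb2 (chr11:96351632-96354020), its neighbour with hindbrain functions, was at 6.48% in control 3 and 9.99% in dnTCF4 1. Hoxb3 (chr11:96307101-96347930), the longest member at 40830 bp, was at 22.8% in control 3, 3.55% in control 4 and 3.56% in dnTCF4 1, through 10, 2 and 6 peaks. Hoxb4 (chr11:96318267-96321638), known for promoting blood stem cell expansion, was at 29.9% in control 3 and 18.6% in control 4. Within their own bodies Hoxb1, Hoxb2 and Hoxb4 held no covered base in any library, so their values came from the flanks.

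The 5 central genes act in the neck and trunk. Hoxb5 (chr11:96303512-96306121) was covered to 2.42% in control 3 and, like the 3 genes just named, had no covered base in its body. Hoxb6 (chr11:96292814-96301569) was at 36.1% in control 3, 13.7% in control 4 and 22.6% in dnTCF4 1. It was the highest member in control 3 and dnTCF4 1, while Hoxb4 and Hoxb13 stood above it in control 4. Hoxb7 (chr11:96285604-96290163), a gene much studied in breast cancer, was at 20.7%, 7.52% and 7.31% in the same libraries. Hoxb8 (chr11:96279401-96285325), known for blocking the maturation of myeloid cells when overexpressed, was at 12.1% in control 4 and 7.28% in dnTCF4 1, and at 0 in control 3, the longest list. Hoxb9 (chr11:96271330-96276595), which acts with its paralogs in mammary gland development, was at 29.5% in control 3, 12.8% in control 4 and 8.25% for dnTCF4 1. The posterior gene Hoxb13 (chr11:96194316-96196610), known for its role in prostate and tail development, was at 25.3%, 15.9% and 16.4% in these 3 libraries. The mean covered share of Hoxb1 to Hoxb4 was 3.46% against 4.51% for Hoxb5 to Hoxb9, a mean within-library difference of -1.05 percentage points (SD 2.34, n = 8, two-sided exact permutation p = 0.5). It was lower in 2 libraries, higher in 1 and equal at 0 in 5, so that p could not fall below 0.25 in this exact permutation test. The difference was 0.977 points in control 3 and -5.71 points in dnTCF4 1.

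RefSeq promoter windows were matched for 3 of the 10 genes. The 250 bases before the listed start are shown because the windows of Hoxb8 and of the other two differ in their overlap with peaks. Sequences are from GRCm38.p6, plus strand, with CpG sites in capitals.
Hoxb8, chr11:96281655-96281904: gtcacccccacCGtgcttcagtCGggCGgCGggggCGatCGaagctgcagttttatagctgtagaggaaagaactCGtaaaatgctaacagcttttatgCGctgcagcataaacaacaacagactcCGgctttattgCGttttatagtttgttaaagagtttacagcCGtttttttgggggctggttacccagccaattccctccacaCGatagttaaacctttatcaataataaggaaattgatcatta
Hoxb4, chr11:96318017-96318266: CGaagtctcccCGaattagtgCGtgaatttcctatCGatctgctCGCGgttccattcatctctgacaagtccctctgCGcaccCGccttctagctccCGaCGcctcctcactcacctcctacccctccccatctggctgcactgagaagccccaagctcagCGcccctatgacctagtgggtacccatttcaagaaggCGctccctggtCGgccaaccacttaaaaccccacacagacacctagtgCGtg
Hoxb1, chr11:96365508-96365757: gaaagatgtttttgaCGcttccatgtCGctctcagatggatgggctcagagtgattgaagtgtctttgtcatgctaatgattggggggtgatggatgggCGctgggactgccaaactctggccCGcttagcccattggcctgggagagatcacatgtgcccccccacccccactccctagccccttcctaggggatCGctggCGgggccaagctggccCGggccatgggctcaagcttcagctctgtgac
Peaks overlapped the Hoxb8 window, extended by the 50 bases after the start, in control 4 and dnTCF4 1. They overlapped the Hoxb4 and Hoxb1 windows in no library, the nearest peaks lying 452 bp and 464 bp away in control 3. The Hoxb8 start in this table lies inside the annotated span of the gene, downstream of its outermost start. The windows hold 12 (Hoxb8), 14 (Hoxb4) and 7 (Hoxb1) CpG sites, against a median of 6 over 32851 windows of all genes. Fewer CpG sites than in these windows were held by 66.5%, 70.6% and 53.7% of all windows, so none of the 3 stood far out. The letters CTTTGA, the core recognised by TCF factors, were searched on both strands. Of the 3 windows 0 hold them, against 13.8% of all windows. At that share 3 windows are too few to tell whether Hoxb promoters differ from others.

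The peaks of the cluster were of ordinary strength within their lists. The authors' fold enrichment had a median of 3.14 over 51 cluster peaks in control 3, where the list median was 3.01. It was 3.51 over 30 peaks in control 4 (list 3.39), 3.57 over 37 peaks in dnTCF4 1 (list 3.50), 4.07 over 6 peaks in dnTCF4 3 (list 4.05) and 4.73 over 3 peaks in dnTCF4 4 (list 4.48). Cluster peaks were wider than the list in the longest lists, with median widths of 825 and 595 bp in control 3, and narrower in dnTCF4 4, with 176 and 307 bp. Ranked by the authors' p-value, the best cluster peak stood at place 771 in control 3, 422 in control 4, 656 in dnTCF4 1, 1772 in dnTCF4 3 and 296 in dnTCF4 4. With peaks of a −log10 q of at least 2, the marked genes were Hoxb1 and Hoxb13 in control 3, Hoxb7 in control 4 and Hoxb13 in dnTCF4 1. With lists of equal length (the best 1838 peaks), the only gene marked was Hoxb13 in control 3.

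No difference between control and dnTCF4 libraries passed a test at the Hoxb cluster. The number of marked Hoxb genes was 0, 0, 9 and 7 in control and 7, 0, 0 and 0 in dnTCF4 libraries. The groups overlapped, as each held libraries at 0, while control 3, control 4 and, alone in its group, dnTCF4 1 stood at 7 or above. The group means were 4.00 ± 4.69 for control and 1.75 ± 3.50 for dnTCF4 (SD over 4 libraries each), which differ by -2.25 (two-sided exact permutation p = 0.714). Mean coverage of the cluster was 11.8 ± 16.3% for control and 4.43 ± 7.74% for dnTCF4 (SD over 4 libraries each), which differ by -7.35 percentage points (exact permutation p = 0.714). Without control 3 that difference turned to 0.258. The cluster took 0, 0, 0.117% and 0.137% of the covered length of the control lists and 0.171%, 0, 0.0860% and 0.0609% of that of the dnTCF4 lists. Its means were 0.0634 ± 0.0737% and 0.0796 ± 0.0710% (SD over 4 libraries each), 0.0162 percentage points apart (exact permutation p = 0.743). That difference turned negative, to -0.0144, without dnTCF4 1, and to -0.00498 without control 1 or without control 2. After Benjamini-Hochberg adjustment over these 3 comparisons each p was 0.743, and the smallest exact permutation p the values allowed was 0.0286 for both coverage measures and 0.143 for the number of marked genes, which was above 0 in 3 libraries.

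**Figure D4:**
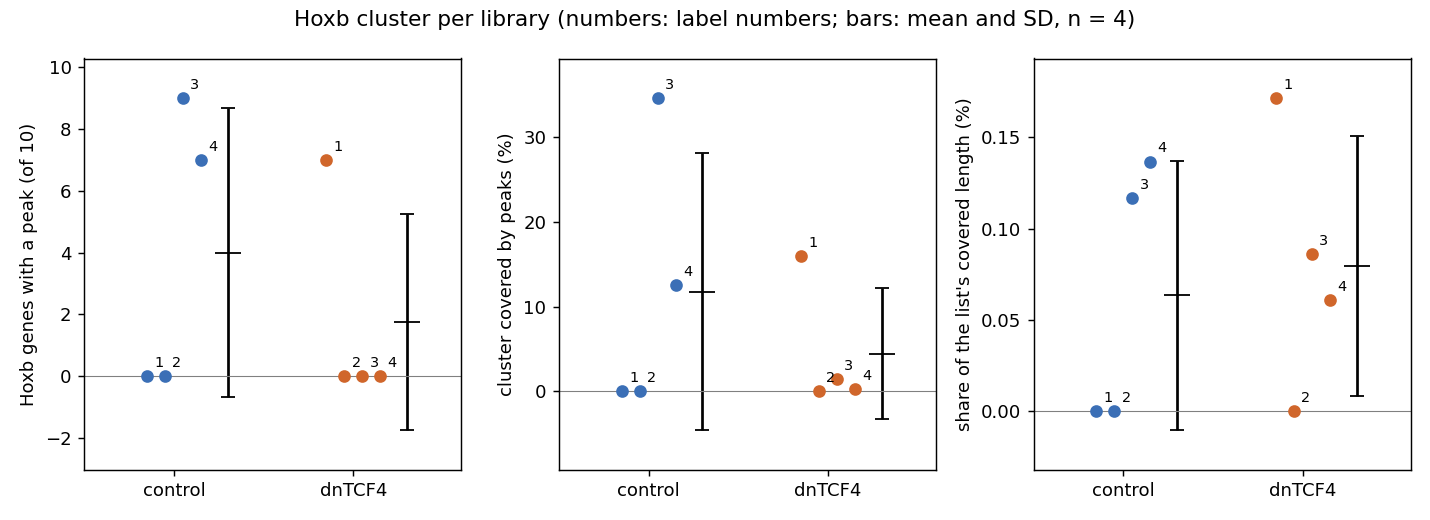
Marked Hoxb genes (left), covered share of the cluster (middle) and share of each list's covered length that lies in the cluster (right) by group; points are libraries with their label numbers, and bars give mean and SD of 4 libraries. In all 3 panels the groups overlap, with libraries 1 and 2 of control and 2 of dnTCF4 at 0.

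For single Hoxb genes the test across genes could make no call. None had peaks in more than 3 libraries, so the smallest exact permutation p it could reach was 0.143 with 3 marked libraries, 0.429 with 2 and 1 with 1, and 75.8% of all genes tested also had peaks in at most 3 libraries. Covered share was tested for the 4626 genes with a peak in any library by the exact permutation test, and 0 genes (0%) passed at an adjusted p under 0.05. No gene could have passed. Even with every gene peaked in more than 3 libraries at the smallest exact permutation p (0.0286), adjusted p would exceed 0.05. At an unadjusted p under 0.05 there was 1 gene (0.0216%), which is no Hoxb gene, and Fisher's exact test on the number of libraries with a peak gave 0 genes. The Hoxb genes had exact permutation p from 0.429 to 1 and adjusted p = 1. Of the 10, 9 had a lower mean in dnTCF4 libraries, as had 88.8% of all genes tested, and the median difference was -5.47 percentage points against -1.03 over all genes tested. Hoxb4 had the lowest mean relative to control, at 12.1 ± 14.7% for control (SD over 4 libraries) and 0 for dnTCF4, which differ by -12.1 points (exact permutation p = 0.429, adjusted p = 1). It was marked in 2 control and 0 dnTCF4 libraries. Hoxb2 was the exception in direction, at 1.62 ± 3.24% and 2.50 ± 4.99% (SD over 4 libraries each), 0.877 points apart (exact permutation p = 1). These values are descriptions. Without control 3 the Hoxb6 difference turned to 1.09, without control 4 that of Hoxb8 turned to 1.82, and without dnTCF4 1 that of Hoxb2 turned to -1.62. The size of most differences also rested on control 3. Without it those of Hoxb3, Hoxb4, Hoxb7, Hoxb9 and Hoxb13 shrank to -0.294, -6.20, -0.680, -2.20 and -1.18. Those of Hoxb2 and Hoxb8 grew to 2.50 and -2.22.

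The Hoxb cluster was less covered than the Hoxc cluster in every library. Hoxc coverage was 67.9%, 47.6%, 61.7%, 30.5% and 9.36% in control 3, control 4, dnTCF4 1, dnTCF4 3 and dnTCF4 4. It was 3.98%, 5.17% and 0.474% in control 1, control 2 and dnTCF4 2, where Hoxb had none. The mean within-library difference was -20.2 percentage points (SD 17.4, n = 8, lower in 8 of 8, two-sided exact permutation p = 0.00781, the smallest possible, adjusted over 3 clusters p = 0.0234; adjusted p = 0.25 with the replicate number as a block, where the unadjusted p cannot go below 0.125). Chromosome 15, which carries Hoxc, was more covered than chromosome 11 in every library, for example 5.46% against 2.09% in control 3. Relative to its own chromosome, the Hoxc cluster stood higher than Hoxb in 7 libraries, but in control 3 it stood at 12.4 times its chromosome and Hoxb at 16.6 times. Against Hoxa and Hoxd, coverage of the whole Hoxb cluster was higher in the 5 libraries with Hoxb peaks and equal at 0 in the other 3. Hoxa coverage was 3.53%, 0.510% and 1.01% in control 3, control 4 and dnTCF4 1, and Hoxd coverage 9.68%, 2.43% and 6.39%. The mean differences were 7.48 points (Hoxa, SD 11.3, n = 8) and 5.70 points (Hoxd, SD 8.92, n = 8), each with an exact permutation p and adjusted p of 0.0625, the lowest value that 5 non-zero differences allow. The difference from Hoxd depended on the region and the lists. It was 1.47 points as a mean over genes with their flanks (exact permutation adjusted p = 0.375), 2.75 points for Hoxb9 to Hoxb1 (adjusted p = 0.25), 0.318 points with lists of equal length (adjusted p = 0.688) and 2.95 points without control 3 (adjusted p = 0.125). In dnTCF4 3 and dnTCF4 4, 2 and 1 of 9 Hoxd genes were marked and 0 Hoxb genes.

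**Figure D5:**
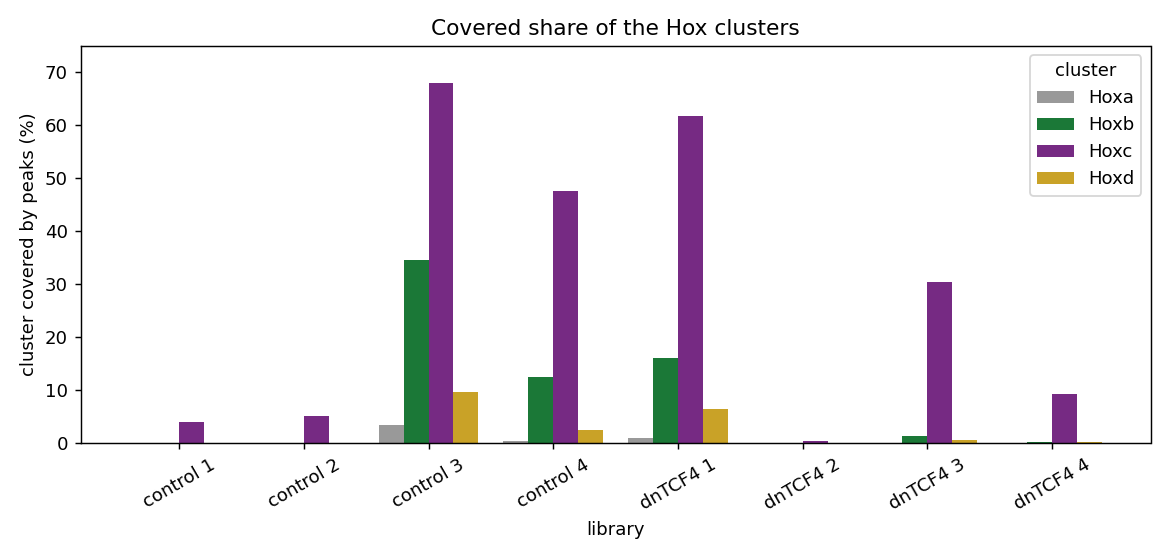
Share of each Hox cluster with 2 kb flanks covered by peaks (y axis, %) in each library (x axis), with 1 bar per cluster. The Hoxc bar is the highest in every library, and the Hoxb bar is second in the 5 libraries where Hoxb holds a peak.

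Genes that act with or on Hox genes had peaks in few cases, as do genes in general (21.4% with a peak in at least 1 library). Of 9 Hox cofactors, 1 (Pknox2, in control 3) was marked in any library. Of 8 upstream regulators 3 were marked. Cdx4 and Cdx2, homeobox activators of Hox genes, were marked in 2 libraries of each group, with Cdx4 covered to 83.6%, 40.7%, 19.8% and 5.84% in control 3, control 4, dnTCF4 1 and dnTCF4 3, and Cdx2 to 30.3%, 6.50%, 19.3% and 2.46%. Rarb, a retinoic acid receptor, was marked in control 3. None of 5 demethylase and trithorax genes was marked in any library. By the exact permutation test adjusted over all genes tested, 0 genes of these lists passed in either direction, and 0 had an unadjusted p under 0.05. No gene could pass the adjusted test, and genes without a peak in any library were not tested. Pknox2 and Rarb, marked in 1 library each, could not reach an unadjusted p under 0.05 either.

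The protein-coding genes outside the Hox clusters whose covered share over the 8 libraries lay nearest to the mean of the 10 Hoxb genes (18.9% in control 3, 8.42% in control 4, 7.54% in dnTCF4 1, 0 elsewhere) were Rgs5, Cdkl4, Cacng2, Neurog2 and Olfr1441. Their Euclidean distances were 0.616, 0.875, 1.49, 1.54 and 1.56 percentage points. Rgs5 was covered to 18.8%, 7.89% and 7.87% in the same 3 libraries. Neurog2, a neural transcription factor gene, was covered to 18.7%, 6.98% and 8.10%.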

How the data were processed

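H3K27me3 was profiled by ChIPmentation, in which a transposase adds adapters on the beads, per the labels' protocols. Per the submitters' processing notes, the tools included MACS2 2.1.2 for peaks and Bowtie2 2.3.4.1 for alignment to mm10, with bedtools 2.28.0, Picard 2.20.2, SAMtools 1.2 and cutadapt through Trim Galore. Options and any IgG control are not given in those notes or the labels. The authors deposited 1 peak list per library, named for it, so peaks were called per library. Each deposited peak has a score (10 times −log10 q, truncated, in all but 7 of 106385 peaks), a fold enrichment ratio, and −log10 p and q-values. These describe or rank peaks within a list only. The lowest deposited −log10 q was 1.01.

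Overlapping peaks were merged, and covered bases counted over RefSeq gene spans (GRCm38.p6, 21631 protein-coding genes) with Python 3.11.15, numpy 2.4.6 and pandas 2.3.3. Group means were compared by two-sided exact permutation over 70 assignments. Within-library differences were tested by flipping signs over 256 patterns. P-values were adjusted by Benjamini-Hochberg. The code was tested on simulated data. Alternatives were flanks of 0 and 5 kb, an overlap of at least 500 bases, windows around both gene ends, −log10 q of at least 2, equal list lengths, the 5 libraries of at least 1000 peaks, leaving out each library, a replicate block, and, chosen after seeing the data, the cluster cut at Hoxb9 and means over gene bodies. Members, gene lists and tests were chosen with earlier results of these data known. All members, the nearest 5 genes on each side, the 5 genes nearest in pattern and up to 4 marked genes per list are named. The result of 1 further gene list is not reported here.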

Additional observations from a re-analysis of the deposited data

Results flagged for a closer look

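In 14 of 26 sets of 4 libraries examined, the highest library stood far from the other 3. Chance gives about 1 such set in 20, and sets in which 3 libraries are at 0 always meet it. All flagged sets were of that kind except Hoxb3 in control and the covered share of the cluster in dnTCF4. The count of 14 therefore cannot be set against chance. In the control group, control 3 stood apart for Hoxb1 (15.7%), Hoxb2 (6.48%), Hoxb3 (22.8%) and Hoxb5 (2.42%), and control 4 for Hoxb8 (12.1%, with 0 in control 3). In the dnTCF4 group, dnTCF4 1 stood apart for the number of marked genes (7), the covered share of the cluster (16%), and the covered share of Hoxb2 (9.99%), Hoxb3 (3.56%), Hoxb6 (22.6%), Hoxb7 (7.31%), Hoxb8 (7.28%), Hoxb9 (8.25%) and Hoxb13 (16.4%). DnTCF4 1 had the longest list of its group and control 3 the longest of all; the part of list length in these values was not tested.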

How the results depend on the processing

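Depth is unknown, and short lists limit what can be seen at Hoxb. The difference in marked Hoxb genes kept its direction under 16 alternatives (-5.67 to -0.500). Covered share of the cluster differed by -17.7 with the 5 longest lists, -0.701 with equal lists and -2.08 with −log10 q of at least 2, and by -11.3 to 0.258 when a library was left out. The share of covered length in the cluster turned to -0.0181 with equal lists, -0.0207 with the 5 longest lists and -0.00878 from Hoxb9 to Hoxb1, and ranged from -0.0144 to 0.0427 when a library was left out; the cause was not tested. Hoxb1 to Hoxb4 against Hoxb5 to Hoxb9 turned to 0.154 with −log10 q of at least 2, and was -4.75 without flanks, 0 with equal lists, -1.68 with the 5 longest lists and -0.387 without dnTCF4 1 (-1.34 to -0.387 when a library was left out). Hoxb against Hoxa kept its direction under 16 alternatives (0.594 to 12), but its size depended on the region and the lists. It was highest with the 5 longest lists, and 3.91 as a mean over genes with their flanks (exact permutation adjusted p = 0.375). From Hoxb9 to Hoxb1 it was 4.53 (exact permutation adjusted p = 0.25), and with equal lists 0.594 (adjusted p = 0.0938). Single genes turned for Hoxb2 (-3.98 with 5 kb flanks) and, on leaving out a library, for Hoxb2 (-1.62 to 2.50), Hoxb6 (-12.5 to 1.09) and Hoxb8 (-3.03 to 1.82).

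Hoxb against Hoxc lost its call with equal lists (-25.5, adjusted p = 0.0938) and with the 5 longest lists (-30.4, adjusted p = 0.0625), where 5 libraries cannot give a p below 0.0625 in the exact permutation test; leaving out any library kept it (-23.0 to -16.6, adjusted p = 0.0469). With the replicate block it was -20.2 (exact permutation adjusted p = 0.25, smallest unadjusted p 0.125). Same-numbered libraries correlated at -0.774, 0.765, -0.248 and -0.502 over genes (deviations from group means). Differently numbered libraries of the 2 groups ranged from -0.776 to 0.760. These values cannot tell whether same-numbered libraries share more than a number, which was not tested. The test across genes with the block gave 0 genes that differ, which its smallest exact permutation p of 0.125 fixed in advance. Without the block no gene could pass after adjustment either, so the 2 outcomes cannot be compared.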

Other observations

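The marked stretch reached beyond the Hoxb cluster and ended before the next genes. Between Hoxb13 and Ttll6, its neighbour, 28.1 kb were covered to 74.3% in control 3, 38.8% in control 4, 60.5% in dnTCF4 1, 11.7% in dnTCF4 3, 2.04% in control 1 and 1.73% in dnTCF4 4. Ttll6, a tubulin modifier, held peaks in 3 control and 3 dnTCF4 libraries, with 14.8% of it covered in control 3, 4.52% in control 4 and 7.20% for dnTCF4 1. On the other side Skap1, a T cell adaptor gene, held peaks in the same number per group and was covered to 45.5%, 25.5% and 27.8% in the same libraries, each above the mean of the Hoxb genes. The next genes outward, Calcoco2, Atp5g1, Ube2z and Snf8 below and Snx11, Cbx1, Nfe2l1 and Copz2 above, had no peak in any library. The 643 kb between Calcoco2 and Snx11 held 142, 113, 117, 33 and 12 peaks in control 3, control 4, dnTCF4 1, dnTCF4 3 and dnTCF4 4, 4 in control 2, 1 in control 1 and none (0) for dnTCF4 2. The first peak of this stretch began between 96160935 (dnTCF4 1) and 96161021 (control 4) in 5 of the 7 libraries with a peak; it began at 96157416 in control 3 and at 96182021 in control 1.

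Of the long non-coding RNA genes between Hoxb13 and Hoxb9, Gm53 was covered to 48.3%, 34.8%, 33.9%, 11.8% and 1.37% in control 3, control 4, dnTCF4 1, dnTCF4 3 and dnTCF4 4, and Gm51876 to 60.1%, 22.9%, 27.8%, 4.18% and 0. Hoxb5os, which overlaps Hoxb6 and Hoxb5 in position, was at 28.0% in control 3, 11% in control 4 and 18.2% in dnTCF4 1, and Hoxb3os at 3.90% in control 3 and 2.62% in dnTCF4 1.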
